A study of Homo sapiens with 24 samples.

Results

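Interleukin-6 (IL-6) family cytokines, their receptors, the kinase JAK1, the transcription factor STAT3 and the SOCS feedback inhibitors were followed by RNA-seq in OE33 cells, a human esophageal adenocarcinoma line. The members were 10 genes, IL6, LIF, IL6R, IL6ST, OSMR, LIFR, JAK1, STAT3, SOCS1 and SOCS3, taken from 61860 Ensembl gene identifiers by matching each identifier to its symbol. All 10 had an entry in each of the 4 count tables. The study asked how obesity and the ubiquitin ligase TRIM15 act on this cancer through the zinc finger factor YY2 and the oxidoreductase FOXRED1.

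The 24 libraries formed 4 experiments with 3 treated and 3 control libraries each. In the first experiment, OE33 tumors were grown under the skin of male BALB/c-nu nude mice, bought at 4 weeks of age, that received a high-fat diet (HFD group) or a normal diet (ND group) for 8 weeks before injection and for 21 days of tumor growth. Nude mice lack T cells and keep their other immune and stromal cells. In the second, OE33 cells received a plasmid for HA-tagged TRIM15 (TRIM15-OE) or the empty vector (TRIM15-EV) for 48 h. In the third and the fourth, OE33 cells received short hairpin RNA plasmids against YY2 (YY2-sh) or FOXRED1 (FOXRED1-sh) for 72 h, each set against its own shControl cultures (YY2-NC and FOXRED1-NC). All groups shared the OE33 background, so every result concerns a single cell line. Whether the 3 libraries of a culture group came from separate cultures is not given, nor whether those of a diet group came from separate mice. The p-values then measure the spread between these libraries, which may be technical. Below, HFD tumors and ND tumors stand for the xenograft libraries.

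IL-6 family cytokines share the signal transducer gp130, which IL6ST encodes. IL-6 binds its own receptor IL6R first, whereas leukemia inhibitory factor (LIF) pairs gp130 with LIFR and oncostatin M pairs it with OSMR. The receptor-bound JAK kinases then phosphorylate STAT3, which enters the nucleus and switches on its targets. SOCS3 and SOCS1 are among those targets, and they bind the receptor or the kinase and stop the signal. In epithelial tumors this route is known for its part in inflammation, acute phase gene expression and survival. RNA levels do not report phosphorylation, so STAT3 activity itself was not measured.

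The members are protein-coding genes on build GRCh38 (GENCODE 29). The receptor genes IL6ST (chr5:55935095-55994993), LIFR (chr5:38474963-38608354) and OSMR (chr5:38845858-38945596) lie on chromosome 5, with LIFR and OSMR close together, and IL6R lies at chr1:154405193-154469450. The ligand genes are IL6 (ENSG00000136244, chr7:22725884-22732002) and LIF (chr22:30240447-30246851). JAK1 lies at chr1:64833229-64966504, STAT3 at chr17:42313324-42388568, SOCS3 (ENSG00000184557) at chr17:78356778-78360077 and SOCS1 at chr16:11254405-11256200.

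Library totals lay between 14299807 and 45994561 counts. The targeted genes followed the labels, with TRIM15 at 111 to 181 counts in TRIM15-OE and 0 in every TRIM15-EV library, YY2 at 11 to 12 counts in YY2-sh and 40 to 46 in YY2-NC, and FOXRED1 at a mean of 10.0 CPM (counts scaled to the same effective library size) in FOXRED1-sh and 17.3 in FOXRED1-NC. FOXRED1 was lower outside its own experiment too, at 16.0 to 19.0 CPM in YY2-sh and 32.1 to 33.5 in YY2-NC. In TRIM15-OE it was at 29.4 to 33.0 CPM and in TRIM15-EV at 36.5 to 37.3. In the xenografts, the summed level of 8 epithelial markers was 14846 to 15077 CPM under HFD and 13730 to 14083 under ND. Summed levels of 6 fibroblast markers were 23.6 to 27.0 CPM under HFD and 30.4 to 33.4 under ND, almost all of it COL1A1, with 1 of 6 markers above 3 counts in any HFD tumor and 3 of 6 in any ND tumor and DCN at 0 to 1 count. Those of 6 leukocyte markers were 14.7 to 14.8 and 15.7 to 17.1 CPM, almost all of it ITGAM and CD14, with PTPRC at 0 to 3 counts. Summed endothelial markers stayed at or below 0.577 CPM and adipocyte markers at or below 1.04 CPM, with ADIPOQ and LEP at 0 counts in all 6 xenograft libraries. All of these are human genes, and how mouse reads were treated is not known. The sums therefore do not show how much mouse tissue the tumors held. The cultures showed such sums too, with the fibroblast list at 10.5 to 11.1 CPM in YY2-NC and 42.3 to 43.9 in YY2-sh, again mostly COL1A1. Their part in the member differences was not tested.

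The promoter-proximal sequences of IL6, the member with the largest changes, and of LIFR, which was higher in every experiment, are shown because they hold letters of motifs known for this pathway. Both are the 250 bases before an annotated start site in RefSeq on build GRCh38.p14, and 9 of the 10 members matched an entry there. In the IL6 window (chr7:22726950-22727199, plus strand) the capitals mark TTGCNNAA, the core of C/EBP sites, and the NF-kB consensus. In the LIFR window (chr5:38595406-38595655, minus strand) the capitals mark TTCNNNGAA, the palindrome that STAT dimers bind.
IL6 upstream: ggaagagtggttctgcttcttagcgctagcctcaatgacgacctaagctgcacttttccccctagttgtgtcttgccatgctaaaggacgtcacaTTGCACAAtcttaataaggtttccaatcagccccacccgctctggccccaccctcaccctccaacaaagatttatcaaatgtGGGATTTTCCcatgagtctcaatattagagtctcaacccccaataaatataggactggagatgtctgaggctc
LIFR upstream: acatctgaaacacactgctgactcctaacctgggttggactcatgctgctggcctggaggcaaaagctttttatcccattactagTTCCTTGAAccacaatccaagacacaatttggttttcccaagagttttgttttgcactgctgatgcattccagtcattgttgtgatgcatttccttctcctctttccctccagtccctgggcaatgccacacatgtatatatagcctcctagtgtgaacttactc
The IL6 matches begin 155 bases (TTGCACAA) and 73 bases (GGGATTTTCC) before the start site, and the LIFR match (TTCCTTGAA) begins 165 bases before it. TTCNNNGAA stood in 6.57% of 35116 windows of this length, TTGCNNAA in 9.05% and the NF-kB consensus in 9.96%, both strands searched, and the LIFR STAT match overlapped no other motif. Of the 14 windows of the members, 2 held the STAT motif, and both belonged to LIFR, which has 3 windows. TTGCNNAA stood in 3 of the 14, in IL6, OSMR and another LIFR window. The NF-kB consensus also stood in 3, in IL6, IL6ST and SOCS1. GCCATNTT, a core of the YY factors, stood in 3.86% of windows and in 0 of those 14. These are matches of letters and not binding measurements.

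In the control groups the pathway was expressed at unequal levels, compared here as CPM per kilobase of exon. JAK1 stood highest in ND, YY2-NC and FOXRED1-NC, with means of 48.02 to 88.6, and in TRIM15-EV it did not differ from LIF beyond the spread (46.5 ± 0.449 and 46.7 ± 0.940, SD, n = 3). OSMR (34.4 to 39.2), STAT3 (22.4 to 37.5), LIF (28.6 to 46.7) and IL6ST (12.4 to 33.0) also stood high. SOCS3 (6.85 to 38.7) lay among these genes in ND and YY2-NC and far below them in FOXRED1-NC. IL6R (5.71 to 6.82) and LIFR (1.23 to 2.05) were lower than their partner gp130 in every control group. Of the ligands IL6 was the lower in each control group, and of the inhibitors SOCS1, at 1.03 to 2.48. In ND all OSMR values (39.2 ± 1.12) lay above all STAT3 values (35.7 ± 1.14), and those of SOCS3 (36.9 ± 2.57) overlapped both. SOCS1 (2.48 ± 0.316) lay above IL6 (2.08 ± 0.263) within each ND library, although their ranges over the libraries overlapped.

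SOCS3 and IL6 differed most between the 4 control groups. SOCS3 stood at 38.7 ± 1.64 CPM per kilobase in YY2-NC, 36.9 ± 2.57 in ND, 22.4 ± 0.724 in TRIM15-EV and 6.85 ± 0.422 in FOXRED1-NC. IL6 stood at 5.07 ± 0.141, 2.08 ± 0.263, 0.511 ± 0.122 and 0.0434 ± 0.0501 in the same order. YY2-NC and ND did not differ in SOCS3 beyond their spread, while the FOXRED1-NC cultures lay below all other controls for both genes. IL6 had 0, 1 and 3 counts in the FOXRED1-NC libraries against 177 to 203 in the YY2-NC libraries, although both groups are OE33 with a control hairpin. The experiments were separate, so a batch and a control construct cannot be told apart here.

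**Figure D1:**
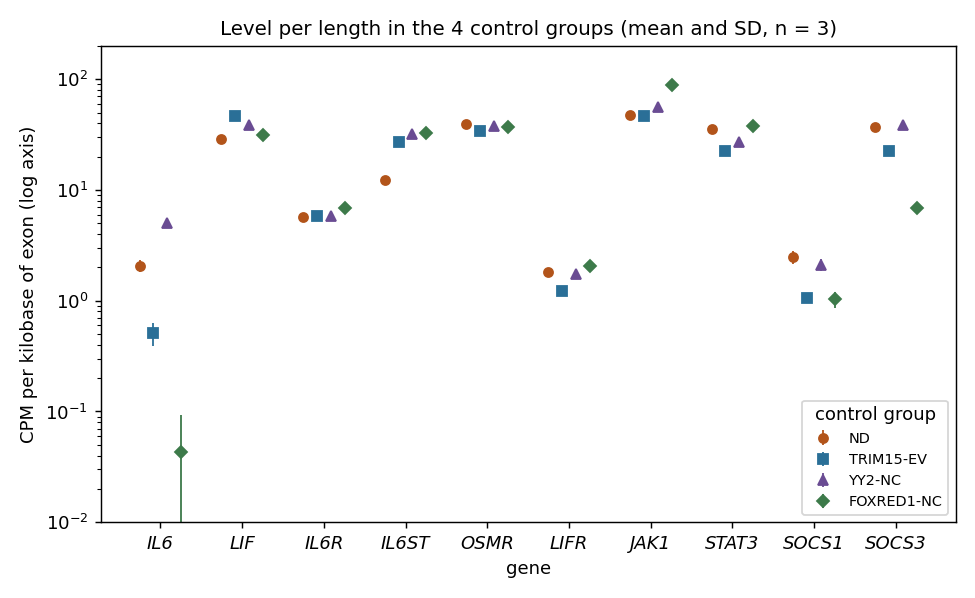
Mean CPM per kilobase of exon (log axis) of the 10 members in the 4 control groups, with SD bars over 3 libraries. The bar of IL6 in FOXRED1-NC is clipped at the lower axis limit because its SD exceeds its mean, and IL6 and SOCS3 show the widest spacing between control groups.

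IL6, IL6ST, OSMR, LIFR, JAK1 and SOCS3 were called higher both under HFD and after TRIM15 overexpression, and YY2 knockdown lowered IL6, LIF, IL6ST and OSMR while it raised IL6R, LIFR, JAK1, STAT3 and SOCS3. Under HFD 8 of 10 members were higher and 1 was lower (edgeR quasi-likelihood test, Benjamini-Hochberg adjusted p under 0.05), against 25.6% of 17012 genes tested called higher and 23.9% called lower. After TRIM15 overexpression 8 of 10 were higher and 1 was lower, where 12.5% and 9.53% of 15745 genes were called in those directions. With a library left out, the genes called there numbered 1247 (without TRIM15-EV replicate 3) to 2594 (without TRIM15-OE replicate 1) higher, against 1973, and 787 to 2506 lower without the same libraries, against 1501. After YY2 knockdown 5 were higher and 4 lower, with a background of 36.8% and 38.1% of 16006 genes. After FOXRED1 knockdown 2 were higher and 3 lower of 9 tested, with a background of 16.8% and 19.7% of 15730 genes, and IL6 was not tested because its counts were too low. The members' median log2 fold change was 0.47 under HFD, 0.22 after TRIM15 overexpression, 0.036 after YY2 knockdown and -0.079 after FOXRED1 knockdown, beside -0.012, -0.0065, -0.0081 and 0.012 over all genes tested. The members were chosen with earlier results of these data known, so these counts and medians are a description and not an independent test. In these bulk samples, fewer cells of a type and less RNA per cell cannot be told apart.

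The treated and control values did not overlap for 9, 9, 9 and 5 members in the same order of experiments, beside 56.2%, 37.7%, 76.3% and 46.7% of all genes tested. An exact permutation test of 3 against 3 libraries cannot go below p = 0.1, so all adjusted p-values come from the fit across all genes. Scaling to library totals alone moved the median of all genes under HFD from -0.012 to -0.12, and all members kept their calls in the 4 experiments. That scaling changed the share of called genes that were higher from 51.7% to 30.5% under HFD, from 56.8% to 40.6% after TRIM15 overexpression and from 46.1% to 57.2% after FOXRED1 knockdown.

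**Figure D2:**
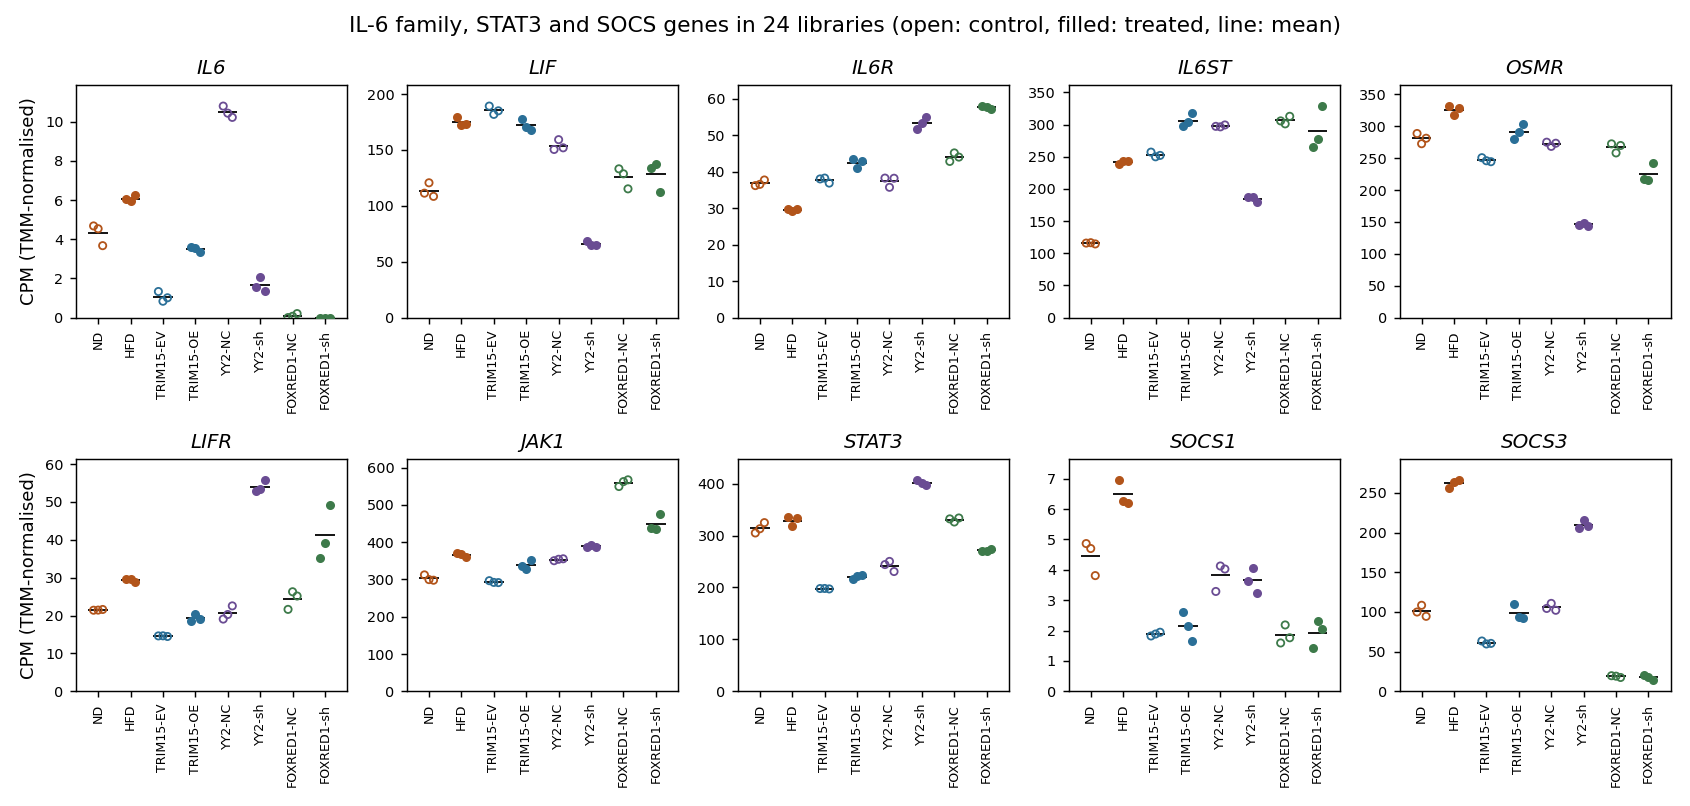
CPM of each member (linear axes from 0, TMM-normalised) in each of the 24 libraries, with controls as open points, treated libraries as filled points and group means as lines. SOCS3 and IL6ST stand clear of their controls under HFD, IL6 falls from 10.2 to 10.8 CPM to 1.35 to 2.10 CPM after YY2 knockdown, and IL6 is near 0 in the FOXRED1 experiment.

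The ligand genes IL6 and LIF gave the most varied responses. IL6, the founding cytokine of the family, was at 6.04, 5.95 and 6.24 CPM in the HFD tumors and at 4.68, 4.53 and 3.67 CPM in the ND tumors. All HFD libraries lay above all ND libraries, with a log2 fold change of 0.49 ± 0.11 (SE, adjusted p = 0.00142). In TRIM15-OE it was at 3.60, 3.57 and 3.34 CPM and in TRIM15-EV at 1.33, 0.833 and 1.01 CPM. This 3.34-fold rise (log2 1.74 ± 0.19, adjusted p = 1.27e-05) was the 23rd largest of the 15745 genes and rested on 53 to 74 counts per treated library and 19 to 27 per control library.

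YY2 knockdown took IL6 the other way. Its level was 1.58, 2.10 and 1.35 CPM in YY2-sh and 10.8, 10.4 and 10.2 CPM in YY2-NC, with no overlap. The fall was 6.27-fold (log2 -2.65 ± 0.14, adjusted p = 8.99e-11), the 37th largest fall of 16006 genes. In the FOXRED1 experiment IL6 had 0 counts in each treated library and 0, 1 and 3 in the controls, both at or under a floor of 3 counts, so no fold is given. IL6 shares 428 exon bases, 20.7% of its exons, with the antisense gene AC073072.1, which had 0 to 4 counts in any library. The sources do not settle whether the counting used strand, and without it reads of that stretch cannot be told apart.

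LIF, which signals through LIFR and gp130, was the more abundant ligand. It was at 180, 173 and 173 CPM in the HFD tumors and at 111, 121 and 108 CPM in the ND tumors. The groups were well apart, with a 1.54-fold rise (log2 0.62 ± 0.041, adjusted p = 3.59e-09). In YY2-sh it was at 68.8, 65.1 and 64.8 CPM and in YY2-NC at 150, 159 and 152 CPM. LIF thus fell with IL6 after YY2 knockdown, by 2.32-fold (log2 -1.22 ± 0.036, adjusted p = 7.70e-14).

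TRIM15 overexpression changed LIF little. It was at 178, 170 and 168 CPM in TRIM15-OE and at 189, 182 and 185 CPM in TRIM15-EV, a log2 fold change of -0.11 ± 0.034 (adjusted p = 0.0371). That call was lost without TRIM15-OE replicate 2 (adjusted p = 0.120) or 3 (0.101), and without TRIM15-EV replicate 1 (0.143), 2 (0.0696) or 3 (0.101). After FOXRED1 knockdown LIF was at 113 to 137 CPM against 115 to 133 CPM, overlapping, with an adjusted p of 0.799 and a log2 fold change of 0.029 ± 0.075.

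Among the receptors, IL6ST (gp130) gave the largest rise under HFD. It was at 239, 244 and 244 CPM in the HFD tumors and at 116, 116 and 114 CPM in the ND tumors. The difference of 2.09-fold (log2 1.07 ± 0.034, adjusted p = 8.16e-13) was far larger than the spread within either group. TRIM15-OE libraries had 298, 303 and 318 CPM and TRIM15-EV libraries 257, 250 and 252 CPM (log2 0.28 ± 0.033, adjusted p = 3.82e-05). After YY2 knockdown IL6ST fell from 297, 296 and 299 CPM to 188, 187 and 179 CPM (log2 -0.69 ± 0.029, adjusted p = 5.42e-12). The shared receptor subunit thus rose in the first pair of experiments and fell in the third, in each case without overlap.

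In the FOXRED1 experiment IL6ST was at 264, 278 and 329 CPM in the treated and 306, 301 and 313 CPM in the control cultures. The treated libraries surrounded the controls, and no change was called (log2 -0.079 ± 0.066, adjusted p = 0.379). FOXRED1-sh replicate 3 held the highest value, and without it IL6ST was called lower (log2 -0.18, adjusted p = 0.000769).

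OSMR, the oncostatin M receptor, followed IL6ST in direction. It was at 332, 317 and 328 CPM under HFD against 289, 273 and 281 under ND (log2 0.21 ± 0.035, adjusted p = 9.77e-05). TRIM15-OE libraries had 280, 291 and 303 CPM and TRIM15-EV libraries 251, 246 and 245 CPM (log2 0.24 ± 0.034, adjusted p = 0.000199). Both rises were small and without overlap. YY2 knockdown lowered OSMR from 275, 269 and 273 CPM to 146, 148 and 144 CPM, by 1.86-fold (log2 -0.90 ± 0.029, adjusted p = 1.83e-13). FOXRED1 knockdown lowered it from 272, 258 and 270 CPM to 217, 215 and 243 CPM (log2 -0.25 ± 0.056, adjusted p = 0.00223).

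LIFR, the partner of gp130 for LIF, was the member called higher in all 4 experiments. It was at 29.6, 29.7 and 28.8 CPM under HFD against 21.4, 21.4 and 21.6 under ND (log2 0.45 ± 0.051, adjusted p = 2.06e-06). TRIM15-OE had 18.4, 20.4 and 19.1 CPM and TRIM15-EV 14.6, 14.7 and 14.5 CPM (log2 0.40 ± 0.070, adjusted p = 0.000991). Neither experiment showed overlap. The largest rise, 2.61-fold, followed YY2 knockdown, from 19.1, 20.3 and 22.6 CPM to 53.0, 53.3 and 55.8 CPM (log2 1.39 ± 0.058, adjusted p = 4.51e-12). FOXRED1 knockdown raised it from 21.6, 26.3 and 25.2 CPM to 35.3, 39.1 and 49.2 CPM (log2 0.76 ± 0.11, adjusted p = 4.38e-05). LIF, its ligand, moved the opposite way after YY2 knockdown. LIFR shares 629 exon bases (5.3%) with LIFR-AS1, which had 0 to 41 counts in any library against 297 to 1097 for LIFR.

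IL6R, which gives a cell its own binding of IL-6, was the member lowered by HFD. It was at 29.8, 29.2 and 29.8 CPM in the HFD tumors and at 36.2, 36.5 and 37.7 CPM in the ND tumors (log2 -0.31 ± 0.047, adjusted p = 3.57e-05). Ligand and signal transducer thus rose while the specific receptor fell, all without overlap. The knockdowns raised it, from 38.3, 35.7 and 38.2 CPM to 51.8, 53.5 and 55.1 CPM for YY2 (log2 0.51 ± 0.046, adjusted p = 4.84e-08) and from 42.8, 45.2 and 44.0 CPM to 58.0, 57.7 and 57.1 CPM for FOXRED1 (log2 0.39 ± 0.066, adjusted p = 0.000169). In TRIM15-OE it was at 43.4, 41.0 and 42.9 CPM against 38.0, 38.3 and 36.9 CPM (log2 0.17 ± 0.046, adjusted p = 0.0158). The last call was lost without TRIM15-EV replicate 1 (adjusted p = 0.0543) or replicate 3 (0.0981).

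JAK1, the main kinase bound to gp130, varied within narrow limits. Its mean was 367 CPM under HFD and 303 under ND (log2 0.27 ± 0.034, adjusted p = 5.71e-06), and 339 in TRIM15-OE and 294 in TRIM15-EV (log2 0.21 ± 0.032, adjusted p = 0.000399). It was 389 in YY2-sh and 353 in YY2-NC (log2 0.14 ± 0.026, adjusted p = 0.000180). After FOXRED1 knockdown it fell from 549, 563 and 567 CPM to 438, 435 and 475 CPM (log2 -0.32 ± 0.048, adjusted p = 6.19e-05). JAK1 was thus called in every experiment, without overlap, and lowered in the last.

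STAT3, the transcription factor at the end of the cascade, moved most after YY2 knockdown. It was at 407, 401 and 397 CPM in YY2-sh and at 244, 250 and 231 CPM in YY2-NC. That rise was 1.66-fold (log2 0.73 ± 0.032, adjusted p = 7.13e-12), in the same libraries in which IL6, LIF, IL6ST and OSMR fell. FOXRED1-sh libraries had 270, 270 and 275 CPM and FOXRED1-NC libraries 332, 326 and 334 CPM, a fall of log2 -0.28 ± 0.047 (adjusted p = 0.000149). The knockdowns therefore gave STAT3 changes of opposite sign, each without overlap.

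Neither HFD nor TRIM15 moved STAT3 far. TRIM15-OE had 216, 221 and 224 CPM against 198, 198 and 197 CPM (log2 0.16 ± 0.031, adjusted p = 0.00273). HFD tumors had 335, 319 and 333 CPM and ND tumors 305, 313 and 325 CPM, overlapping, and no change was called (log2 0.067 ± 0.036, adjusted p = 0.142). Without ND replicate 3 the STAT3 difference under HFD passed the threshold (log2 0.098, adjusted p = 0.0488), and with scaling to library totals its sign turned (log2 -0.043).

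SOCS3, a STAT3 target whose protein binds gp130 and stops the signal, had the largest fold change of all members under HFD. It was at 256, 264 and 266 CPM in the HFD tumors and at 99.9, 108 and 94.5 CPM in the ND tumors. The rise was 2.59-fold (log2 1.37 ± 0.045, adjusted p = 1.17e-12), the 60th largest of 17012 genes. TRIM15-OE had 110, 94.1 and 92.0 CPM and TRIM15-EV 63.4, 59.7 and 60.4 CPM, a 1.62-fold rise (log2 0.70 ± 0.059, adjusted p = 1.08e-06). SOCS3 rose by 1.99-fold after YY2 knockdown, from 104, 111 and 102 CPM to 206, 216 and 208 CPM (log2 0.99 ± 0.035, adjusted p = 6.16e-13). It therefore rose in 3 experiments, and in the YY2 experiment it did so while IL6 and LIF fell.

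In the FOXRED1 experiment SOCS3 was low throughout. It was at 20.0, 18.2 and 14.7 CPM in FOXRED1-sh and at 19.7, 19.1 and 17.4 CPM in FOXRED1-NC, overlapping, with no change called (log2 -0.080 ± 0.12, adjusted p = 0.625). SOCS1, the related inhibitor that blocks JAK kinases directly, was scarce everywhere. It was at 6.96, 6.27 and 6.21 CPM under HFD and at 4.87, 4.70 and 3.81 CPM under ND, apart and called higher (log2 0.52 ± 0.11, adjusted p = 0.000928). In the other 3 experiments SOCS1 lay between 1.44 and 4.13 CPM (26 to 80 counts per library), treated and control libraries overlapped, and no change was called, with log2 fold changes of 0.20 ± 0.19, -0.066 ± 0.15 and 0.072 ± 0.28.

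**Figure D3:**
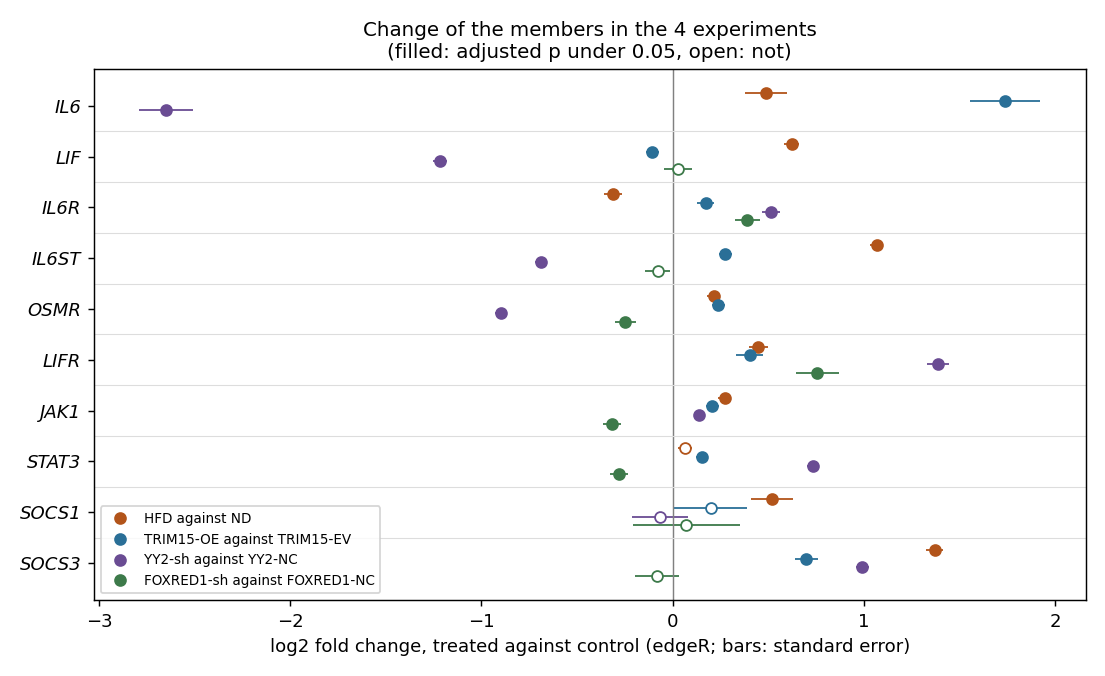
Log2 fold change (x axis, with standard error bars) of the 10 members (y axis) in the 4 experiments, filled where the adjusted p was under 0.05. LIFR lies right of 0 in every experiment, IL6 spans -2.65 to 1.74, and IL6 has no point for FOXRED1 because it was not tested.

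The HFD and TRIM15 effects were compared directly, since TRIM15 was itself higher in the HFD tumors (12 to 24 counts against 0 to 1). Its mean was 0.632 CPM in HFD and 8.42 CPM in TRIM15-OE. The comparison also sets tumors against transfected cultures, so level, time and setting differ between the effects. Of the 10 members, 3 had a larger log2 fold change under HFD and 2 a smaller one, against 21.5% and 13.6% of 17160 genes called in those directions. The HFD effect exceeded the TRIM15 effect for IL6ST by 0.82 ± 0.046 (adjusted p = 2.97e-11), for LIF by 0.76 ± 0.054 (adjusted p = 1.15e-09) and for SOCS3 by 0.70 ± 0.079 (adjusted p = 5.96e-07). It was below the TRIM15 effect for IL6, with a difference of -1.22 ± 0.21 (adjusted p = 0.000104), and for IL6R, with -0.45 ± 0.062 (adjusted p = 7.72e-06). No difference was called for OSMR, LIFR, JAK1, STAT3 and SOCS1, whose differences lay between -0.059 and 0.35. With scaling to library totals, a difference was also called for STAT3 (-0.17, adjusted p = 0.00836), and 37.3% instead of 61.2% of called genes were higher.

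The knockdown effects were compared in the same way. The knockdowns differed in depth. YY2 was at 0.594 to 0.718 CPM in YY2-sh and 2.32 to 2.36 in YY2-NC. FOXRED1 was at 8.81 to 11.2 CPM in FOXRED1-sh and 17.1 to 17.7 in FOXRED1-NC, and was lower in YY2-sh too. SOCS3 averaged 106 CPM in YY2-NC and 18.7 in FOXRED1-NC. The part of these in the differences was not tested. IL6 was left aside because the FOXRED1 libraries were at or under the floor. Of the other 9 members, the YY2 effect was above the FOXRED1 effect for 4 and below it for 3, with a background of 26.4% and 28% of 17146 genes. It was higher for SOCS3 by 1.07 ± 0.11 (adjusted p = 2.23e-08), for STAT3 by 1.02 ± 0.054 (adjusted p = 1.17e-12), for LIFR by 0.63 ± 0.14 (adjusted p = 0.000581) and for JAK1 by 0.45 ± 0.054 (adjusted p = 2.83e-07). It was lower for LIF (-1.25 ± 0.092, adjusted p = 1.81e-10), OSMR (-0.65 ± 0.064, adjusted p = 1.58e-08) and IL6ST (-0.61 ± 0.079, adjusted p = 9.09e-07). For IL6R, raised by both knockdowns, the difference of 0.12 ± 0.076 was not called (adjusted p = 0.178).

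Other ligands of the family formed a list of 9 genes, of which 6, 5, 6 and 6 were tested in the HFD, TRIM15, YY2 and FOXRED1 experiments, with 2, 2, 1 and 1 higher and 1, 0, 2 and 0 lower. IL11, which signals through gp130 with its own receptor, rose under HFD from 2.86 to 6.71 CPM (log2 1.21 ± 0.12, adjusted p = 4.22e-07) and after TRIM15 overexpression from 2.75 to 5.99 CPM (log2 1.13), and fell after YY2 knockdown from 12.6 to 6.65 CPM (log2 -0.92). IL11 thus moved in the same directions as IL6. CLCF1, a ligand for the ciliary neurotrophic factor receptor, fell after YY2 knockdown from 31.8 to 9.77 CPM (log2 -1.70). CTF1, cardiotrophin-1, fell under HFD (log2 -0.80) and rose after both knockdowns (log2 0.60 for YY2 and 0.71 for FOXRED1).

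Of the 5 tested genes for other receptors and the proteases that shed them, 2, 1, 1 and 0 were higher and 2, 0, 2 and 1 lower in the same order, with ADAM17, a sheddase of IL6R, rising under HFD from 69.9 to 90.3 CPM (log2 0.37) and ADAM10, which can shed IL6R too, falling from 289 to 248 CPM (log2 -0.22). IL11RA rose after YY2 knockdown from 0.510 to 3.40 CPM (log2 2.72), and IL31RA fell after FOXRED1 knockdown from 9.46 to 2.22 CPM (log2 -2.09). Of the 9 other JAK and STAT genes, 5, 2, 5 and 6 were higher and 3, 1, 2 and 1 lower. JAK3 rose most, from 1.70 to 12.6 CPM after YY2 knockdown (log2 2.89), followed by STAT4 there (log2 1.53), and STAT5A led under HFD (log2 0.67). Of 14 tested inhibitors, phosphatases and PIAS proteins, 8, 4, 6 and 3 were higher and 2, 1, 5 and 4 lower. Beside these list counts and those of the other ligands stand the shares of all genes called. They were 25.6%, 12.5%, 36.8% and 16.8% higher and 23.9%, 9.53%, 38.1% and 19.7% lower in that order of experiments. The inhibitor counts after both knockdowns were near those shares. PTPN2, a phosphatase of JAK kinases and STATs, rose under HFD (log2 0.57) and SOCS2 fell after FOXRED1 knockdown (log2 -0.83). With scaling to library totals the inhibitor counts under HFD became 5 higher and 5 lower.

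Counts this small moved with single libraries. Without HFD replicate 2 or 3 or ND replicate 1, only 1 of the other ligands was higher under HFD. Each of the 6 libraries of the TRIM15 experiment, when left out, changed at least 1 of these counts there, to between 0 and 2. The 2 JAK and STAT genes lower after YY2 knockdown became 1 without any library of that experiment other than YY2-NC replicate 3. The 3 inhibitors higher after FOXRED1 knockdown became 1 without FOXRED1-sh replicate 1 or 2 or FOXRED1-NC replicate 3.

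Known STAT3 target genes, 32 listed from general knowledge, were read as a group. The list was chosen with earlier results of these data known, so its counts are a description and not an independent test. Under HFD 21 of 26 tested were higher and 2 lower, with a median log2 fold change of 0.42, beside 25.6% higher, 23.9% lower and a median of -0.012 over all genes tested. The largest rises with at least 1 CPM were those of SERPINA1, alpha-1-antitrypsin, from 9.64 to 19.3 CPM (log2 0.97), and SAA2, a serum amyloid, from 28.1 to 49.3 CPM (log2 0.81), and the falls were FOS (log2 -0.20) and CEBPD (log2 -0.17). After TRIM15 overexpression 11 of 28 were higher and 6 lower (median 0.13), beside 12.5% and 9.53% of all genes (median -0.0065), with SAA2 (log2 0.68) and ICAM1, an adhesion molecule (log2 0.60), at the top and FOS (log2 -0.60) and BIRC5 (log2 -0.20) among the falls. The other lower genes included FGA, FGB and HP, liver acute phase genes named after their values were seen, which had 0 to 6 counts in TRIM15-OE and 11 to 34 in TRIM15-EV. The number lower became 3 without TRIM15-OE replicate 2 or TRIM15-EV replicate 3, and likewise 3 with the DESeq2 Wald test or with at least 10 counts required in every library.

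After YY2 knockdown 12 of 25 targets were higher and 12 lower (median -0.025), an even division like that of all genes, of which 36.8% were higher and 38.1% lower (median -0.0081). BCL6, a transcriptional repressor, rose from 16.6 to 102 CPM (log2 2.62) and FOS from 119 to 455 CPM (log2 1.94), while CCND1, cyclin D1, fell from 614 to 204 CPM (log2 -1.59) and VEGFA from 250 to 146 CPM (log2 -0.78). After FOXRED1 knockdown 14 of 25 were higher and 6 lower (median 0.23), beside 16.8% and 19.7% of all genes (median 0.012), while STAT3 itself fell and SOCS3 was not called. MUC1, a membrane mucin, rose from 13.0 to 29.8 CPM (log2 1.19) and SAA1 from 38.6 to 63.8 CPM (log2 0.73), and BIRC5 (log2 -0.78) and CCND1 (log2 -0.71) fell most. Many of these genes answer to other factors as well, so the counts do not measure STAT3 activity.

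**Figure D4:**
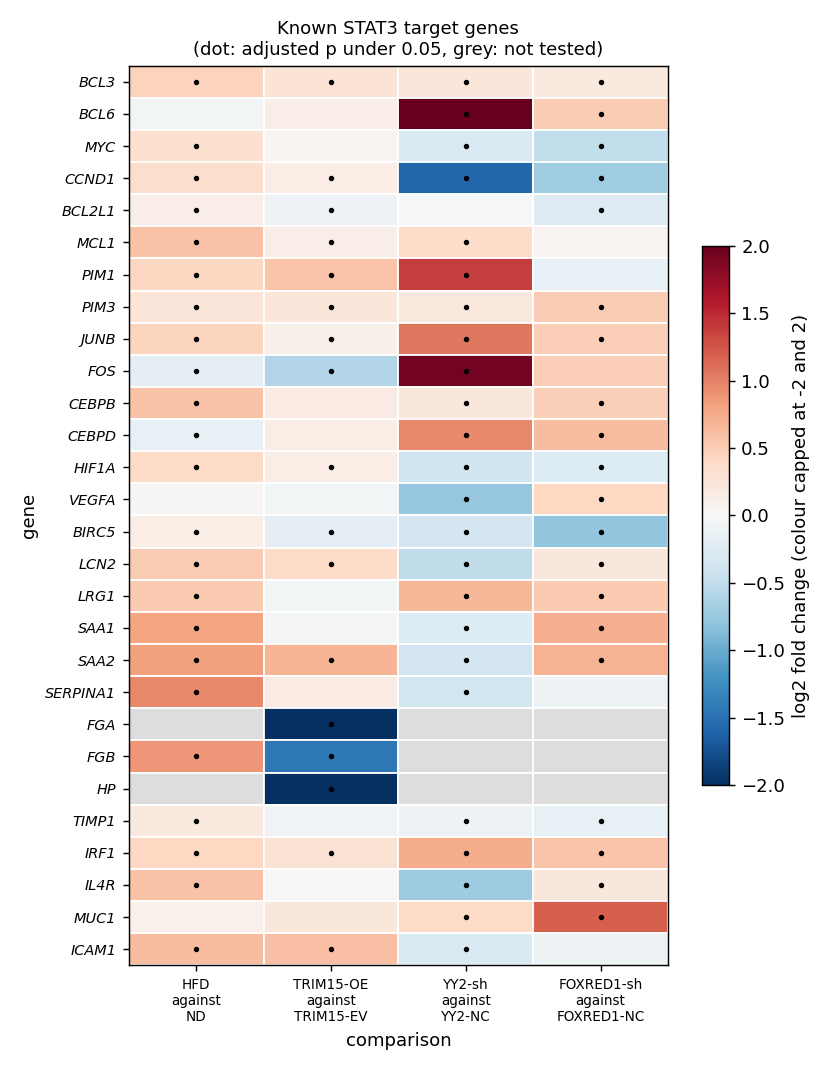
Log2 fold change (colour, capped at -2 and 2) of the known STAT3 target genes that were tested in at least 1 experiment (rows) in the 4 experiments (columns), with a dot where the adjusted p was under 0.05 and grey where a gene was not tested. The HFD column is mostly red (21 higher, 2 lower) and the YY2 column holds 12 higher and 12 lower, beside 36.8% and 38.1% of all genes.

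The genes most like IL6 and SOCS3 across the 24 libraries were found by Pearson correlation of log2(CPM + 1), centred within each experiment. For IL6 they were CXCL8, a neutrophil chemokine (r = 0.98), TP53BP2 (0.965) and ABTB2 (0.962), over 14519 genes. For SOCS3 they were MAOA (0.945), KRT16 (0.938) and ATP2B4 (0.937), over 14518 genes. The 24 points share their experiments and treatments, so the coefficients describe these libraries. IL6 had 0 to 3 counts in the FOXRED1 experiment, at or under the floor, so those libraries add little to its coefficients. With a pseudocount of 0.25 CPM, CXCL8 and TP53BP2 stayed among the nearest genes for IL6, and MAOA and ATP2B4 for SOCS3.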

How the data were processed

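RNA-seq was analysed in 24 libraries of OE33 cells or OE33 xenografts. The authors deposited raw read counts per Ensembl gene, 1 table per experiment. The submitters' processing notes name the builds hg38 and mm10 without a role, so how mouse reads in xenografts were treated is not known, and the aligner and counter are not given in the sources used here. The labels name a directional library kit and the methods a non-directional one.

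Symbols were matched for 99.8% of 61860 identifiers, and lengths came from GENCODE 29. Each experiment was fitted alone with edgeR 4.0.16 in R 4.3.3 (filterByExpr with a minimum count of 10 and a minimum total of 15, TMM, quasi-likelihood test, Benjamini-Hochberg adjustment over all genes tested, threshold 0.05), and pairs of effects in a fit with an interaction term. CPM values are TMM-normalised. A count of 3 or less was taken as the floor. The fits were also run on counts simulated with known changes, and the outcome is not given here. No replicate pair agreed within sampling noise. Counting error is smallest for the deeper libraries, which hold up to 45994561 counts.

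All 10 members were named, and of each further list at most the 2 largest rises and 2 largest falls past the threshold with at least 1 CPM, plus the 3 genes most like IL6 and SOCS3. The members and lists were chosen with earlier results of these data known. Alternatives were DESeq2 1.42.0 and its size factors, other count filters, a replicate block, a fit of all 24 libraries, leaving out each library, and library totals without TMM factors, the last added after seeing the data. Same-numbered FOXRED1 libraries deviated together over genes with at least 10 CPM (correlations of 0.212, 0.126 and 0.41; over all genes tested 0.0318, 0.0125 and 0.0775), which passed the limit set for pairing in the first set only, while each other experiment had a pair at or below 0.1. All values given come from the fits without the block, also for FOXRED1, and the blocked counts stand among the alternatives.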

Additional observations from a re-analysis of the deposited data

How the results depend on the processing

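Of the log2 fold changes of the members, 817 kept direction and side of the threshold under an alternative, 9 lost the call, 3 gained it and 18 changed sign. Under the replicate block no member call changed in any comparison. In the FOXRED1 experiment, whose numbers may pair the libraries, 2 members stayed higher and 3 lower under that block, while all genes called went from 5752 to 6793. With a library of that experiment left out, all genes called numbered 4629 to 6853 and members lower 3 to 4. All signs that turned were of changes not called. They were STAT3 under HFD (-0.043), and OSMR (-0.10), LIFR (-0.033) and JAK1 (-0.015) in the HFD against TRIM15 effect, with library totals, and OSMR there with at least 10 counts in every library (-0.017). Leaving out a library gave a range across 0 for OSMR there (-0.021 to 0.038), for SOCS1 after TRIM15 (-0.00087 to 0.35), YY2 (-0.17 to 0.019) and FOXRED1 (-0.090 to 0.25) and between the knockdowns (-0.33 to 0.031), for LIF after FOXRED1 (-0.031 to 0.11) and for SOCS3 after FOXRED1 (-0.18 to 0.027). After TRIM15 overexpression the members called lower numbered 0 with all 24 libraries in a single fit and 0 to 1 with a library left out. All genes called there numbered 2034 to 5100 with a library left out, against 3474, and 2034 to 2243 without TRIM15-OE replicate 2 or any TRIM15-EV replicate. IL6R after TRIM15 lost its call with DESeq2 (adjusted p = 0.0534). The causes were not tested. SOCS1, with 26 to 80 counts per library in the culture experiments, and IL6 had the largest standard errors.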

Other observations

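The antisense and neighbouring genes that share exon bases with the members were read beside them. RICTOR, which shares 229 exon bases with OSMR on the opposite strand, had 3860 to 4561 counts in YY2-sh and 1989 to 2412 in YY2-NC, where OSMR fell. RAVER2, which shares 4 bases with JAK1, had 555 to 732 counts in TRIM15-OE and 819 to 1120 in TRIM15-EV, where JAK1 rose. The RAVER2 counts are raw and not scaled to depth. Library totals were 15534233 to 20901782 in TRIM15-OE and 20108463 to 26479130 in TRIM15-EV, so the size of its fall is overstated. AC004264.1, which shares 175 bases with LIF, had 18 to 31 counts in YY2-sh and 40 to 58 in YY2-NC, where LIF fell too.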
